A study of Homo sapiens with 9 samples.

Results

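The SMAD factors and their receptors were followed across 6 human lymphoid cell lines. The genes named for study were SMAD1, SMAD2, SMAD3, SMAD4, SMAD5, SMAD7, TGFBR1, TGFBR2, BMPR1A and BMPR2. Every probe set of the array that carries only one of these symbols was taken, which gave 19 probe sets of 9 genes among 22215 probe sets in all. BMPR1A was not analysed here. The genes were chosen by name with the SMAD1 levels of Namalwa and the other B-cell lines in view, so that contrast is described without a test.

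RNA of each line was hybridised to Affymetrix HG-U133A arrays, 9 in all. The plasma cell myeloma (PCM) lines were L363, which was derived from plasma cell leukaemia, and the myeloma-derived U266 and LP1, with 1 array each. The B-cell lines were Namalwa, from a Burkitt lymphoma, and SU-DHL6 and SU-DHL4, from diffuse large B-cell lymphomas, with 2 arrays each. All were tumour lines grown in RPMI 1640 with fetal bovine serum, so each stands for 1 patient's tumour in culture and not for normal plasma cells or B cells. The titles of the B-cell arrays say untreated, and those of the PCM arrays name no treatment. The Namalwa arrays came from an earlier publication of the same group.

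TGF-beta and bone morphogenetic proteins (BMPs) are secreted ligands that bring together a type II and a type I receptor kinase at the cell surface. The activated type I receptor phosphorylates receptor-regulated SMADs, SMAD2 and SMAD3 after TGF-beta or activin and SMAD1 and SMAD5 after BMPs, which then enter the nucleus with the shared partner SMAD4. SMAD7 is an inhibitory SMAD that is induced by the pathway and blocks the type I receptor. In B-lineage cells both ligand families restrain growth, and TGF-beta directs class switching to IgA.

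All levels are robust multi-array average (RMA) values on the log2 scale, in which a difference of 1 is a 2-fold change. RMA gives no detection call, so a low level is not absence, and levels of different probe sets are not set against each other. In such bulk RNA, fewer cells with a transcript and less of it per cell cannot be told apart. Where a gene has several probe sets, the leading one is that with the highest mean over the 6 lines. Marker genes followed the labelled classes: 7 of 7 measured B-cell markers were lower in every PCM line than in every B-cell line, and 7 of 8 plasma cell markers were higher. The mean of the B-cell markers was 6.57 to 7.0 in PCM lines and 10.47 to 10.94 in B-cell lines. None of 7 T and NK cell markers and none of 6 myeloid markers separated the classes, and 1 of 6 stromal markers did. The arrays of L363 and U266 lay close together: the SD of their log2 difference over all probe sets was 0.320, against 0.217, 0.236 and 0.347 between duplicates of Namalwa, SU-DHL4 and SU-DHL6. LP1 stood farther off, at 0.550 from L363 and 0.547 from U266. Calls that rest on L363 and U266 as separate lines are therefore also given with their mean counted as 1 line.

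In all, 3 genes had a probe set that passed the test in a comparison of lines, SMAD7 between the classes and TGFBR2 and SMAD3 between SU-DHL6 and SU-DHL4, and the stretches just upstream of their outermost RefSeq starts are shown because these genes carry the tested differences. Each is 250 bases, 5′ to 3′ on the gene's own strand, in GRCh38.p14: chr18:48950966-48951215 on the minus strand for SMAD7, chr3:30606106-30606355 on the plus strand for TGFBR2 and chr15:67065352-67065601 on the plus strand for SMAD3. Capitals mark GTCT or its reverse complement AGAC, the core letters of the SMAD-binding element, and GGCGCC, a GC-rich form that BMP-type SMADs and SMAD4 are known to bind.
SMAD7: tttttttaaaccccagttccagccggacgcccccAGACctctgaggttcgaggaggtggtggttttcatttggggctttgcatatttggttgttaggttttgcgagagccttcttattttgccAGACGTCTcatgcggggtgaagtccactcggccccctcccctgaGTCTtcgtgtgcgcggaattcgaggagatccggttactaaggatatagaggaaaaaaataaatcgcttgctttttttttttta
TGFBR2: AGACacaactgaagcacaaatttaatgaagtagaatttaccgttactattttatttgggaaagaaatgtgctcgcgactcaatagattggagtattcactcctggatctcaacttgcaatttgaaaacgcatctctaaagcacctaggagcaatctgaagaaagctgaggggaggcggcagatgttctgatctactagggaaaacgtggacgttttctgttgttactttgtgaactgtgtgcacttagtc
SMAD3: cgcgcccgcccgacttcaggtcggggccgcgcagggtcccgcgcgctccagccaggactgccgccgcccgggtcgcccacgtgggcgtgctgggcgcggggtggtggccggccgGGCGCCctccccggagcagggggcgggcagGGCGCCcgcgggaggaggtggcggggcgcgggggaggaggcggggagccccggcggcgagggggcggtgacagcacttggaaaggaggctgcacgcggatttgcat
The SMAD7 window held GTCT or AGAC 4 times, once as the adjoining pair AGACGTCT, and TGFBR2 held it 1 time. The SMAD3 window held none, but had GGCGCC 2 times in a stretch of 80.8% G and C. These counts depend on the start: RefSeq gives 5 windows for SMAD3, 3 for SMAD7 and 2 for TGFBR2. An inner window of SMAD3 and one of SMAD7 each held GTCT or AGAC 5 times. Of 35116 RefSeq windows of that length, 77.5% held GTCT on either strand at least once and 7.75% at least 4 times, while 16.4% held GGCGCC. The joined palindrome GTCTAGAC, which 0.182% of windows held, was in none of the 3 windows shown. These matches are descriptions of the letters and not binding sites.

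SMAD7 was the only one of the SMAD and receptor genes to pass the test between the classes. Its probe set (204790_at) read 7.94 in L363, 8.23 in U266 and 8.96 in LP1. In the B-cell arrays it read 6.28 and 6.38 in Namalwa, 5.78 and 6.26 in SU-DHL6, and 5.89 and 5.84 in SU-DHL4. Every PCM line lay more than 1 log2 unit above every B-cell array, and the classes did not overlap. SMAD7 averaged 8.38 ± 0.52 in PCM lines and 6.07 ± 0.24 in B-cell lines (SD, n = 3 lines each), a difference of 2.30 on the log2 scale (SE 0.29), or 4.94-fold. It passed limma's test across all probe sets with an adjusted p of 0.0230. This was 1 of 19 probe sets of the SMADs and receptors, where 2.79% of all probe sets were called. At an unadjusted p under 0.05 it was 2 of 19, with SMAD2 (203075_at) below, where 19.7% of all probe sets reached that level. Among all probe sets 117 had a difference at least as large as that of SMAD7. The direction and size were kept when any line was left out, at 2.01 to 2.52, but the call was not: the adjusted p in limma was 0.0136 without LP1 and 0.0521 without Namalwa, 0.0706 without SU-DHL6, 0.0894 without SU-DHL4, 0.0597 without L363 and 0.0693 without U266. With L363 and U266 averaged as 1 line the difference was 2.45 and the adjusted p in limma 0.0622.

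**Figure D1:**
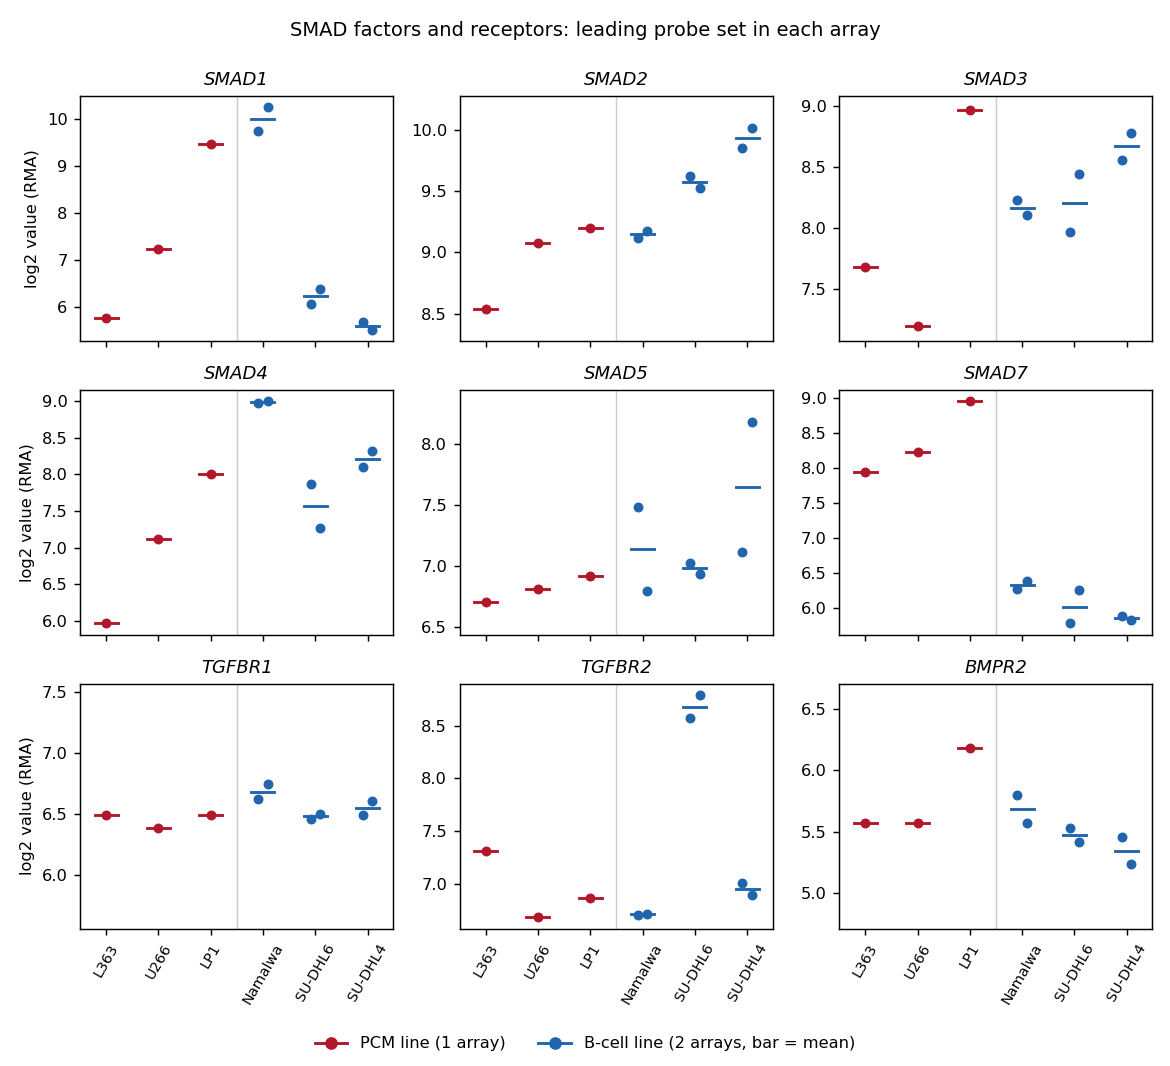
RMA log2 level of the leading probe set of each of the 9 genes, with 1 point per array and a bar at the line mean, PCM lines in red on the left of each panel and B-cell lines in blue on the right; every panel spans at least 2 log2 units. SMAD7 lies at 7.94 to 8.96 in the PCM lines and at 5.78 to 6.38 in the B-cell arrays, SMAD1 is highest in Namalwa and LP1, and TGFBR2 is highest in SU-DHL6.

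None of the other 18 probe sets passed the test between the classes, although 14 of the 19 had a negative difference, where 40.0% of all probe sets did. Probe sets of a gene are not separate, and the leading ones were negative for 6 of the 9 genes. The median over the 19 was -0.14, against 0.05 over all probe sets. The lines failed to overlap at 2 of the 19, SMAD7 above and the leading SMAD5 probe set below, where 28.2% of all probe sets had classes that did not overlap. Over the 6 lines 10 of 19 probe sets varied by at least 2-fold, where 25.6% of all probe sets did. The median range was 1.24 log2 units, against 0.53 over all. SMAD7 and the leading SMAD1 probe set were among the 10, as were several probe sets each of SMAD2 and SMAD3. The range takes in the Namalwa contrast of SMAD1 that was in view when the genes were chosen. The count and the median range are therefore descriptions and not results about the set.

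**Figure D2:**
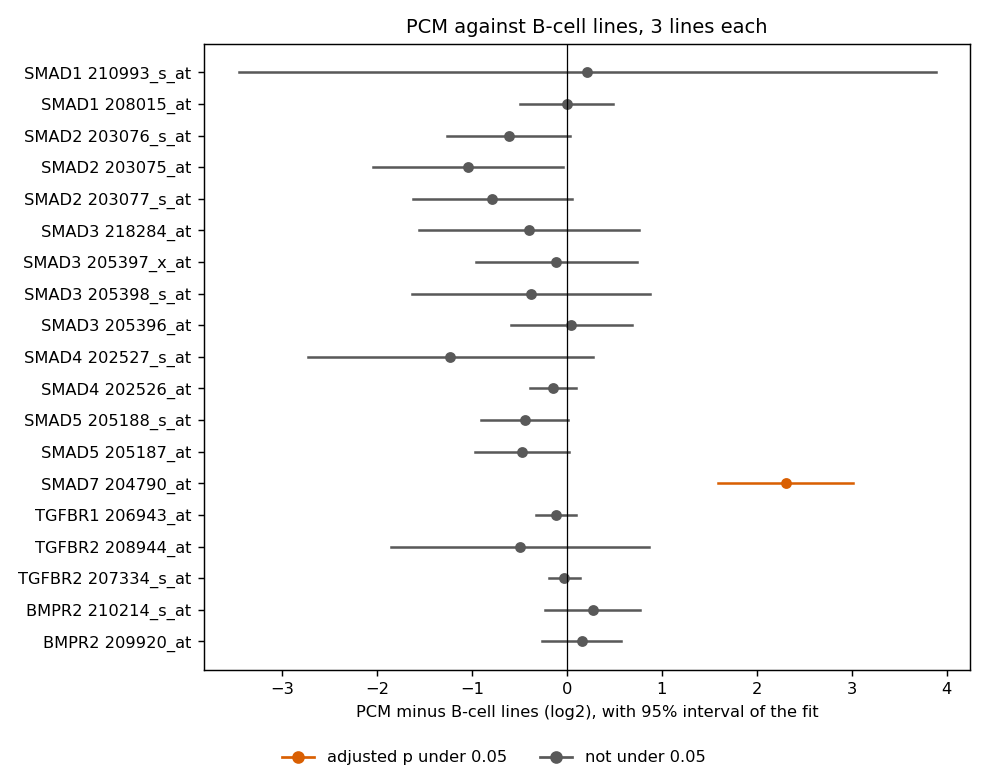
Difference between PCM and B-cell lines in log2 units for the 19 probe sets, as points with the 95% interval of the limma fit over 3 lines per class, in orange where the adjusted p was under 0.05. SMAD7 at 2.30 is the coloured point, and the interval of the leading SMAD1 probe set runs from -3.46 to 3.88.

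Among the receptors, TGFBR1, the type I kinase for TGF-beta, read nearly flat at its probe set (206943_at). Its 9 arrays read between 6.39 in U266 and 6.74 in Namalwa. SU-DHL4 array 1, L363 and LP1 had the same value, 6.491. With such ties and no detection call, an even level does not show equal RNA. The TGFBR1 means were 6.46 ± 0.06 in PCM lines and 6.57 ± 0.10 in B-cell lines (SD, n = 3 each). The difference was -0.11 with a 95% interval of -0.32 to 0.10 (adjusted p = 0.482 in limma).

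TGFBR2, the type II receptor that binds TGF-beta, was high in a single line. Its leading probe set (208944_at) read 8.57 and 8.79 in SU-DHL6, against 7.01 and 6.90 in SU-DHL4. It read 6.71 and 6.71 in Namalwa, 7.31 in L363, 6.68 in U266 and 6.87 in LP1. Both SU-DHL6 arrays thus lay above every other array of the study. SU-DHL6 exceeded SU-DHL4 by 1.73 on the log2 scale (SE 0.11), or 3.31-fold, with an adjusted p of 0.00179 in limma. That fit rested on 2 arrays of each line, so its p-value measures the spread between duplicates, which may be technical, and not between cultures or patients. Marker genes moved between these lines too: 3 of 8 plasma cell markers, IRF4, XBP1 and TNFRSF17, read at least 2-fold higher in SU-DHL6, and 2 of 6 stromal markers, DCN and THY1, at least 2-fold lower. DCN read 7.93 and 7.97 in SU-DHL6, against 10.68 and 10.62 in SU-DHL4, and THY1 read 7.24 and 7.23 in SU-DHL6, against 9.65 and 9.26 in SU-DHL4. The plasma cell markers averaged 7.92 to 8.01 in SU-DHL6 arrays and 7.10 in SU-DHL4 arrays, and the stromal ones 7.09 to 7.15 in SU-DHL6 and 7.82 to 7.91 in SU-DHL4. No B-cell, T and NK cell or myeloid marker differed by 2-fold. The part of these markers in the SU-DHL differences of TGFBR2, SMAD3 and the other pathway genes was not tested. For TGFBR2 the call held in all 12 alternatives run, with differences of 1.62 to 1.84 and limma adjusted p-values of 0.000998 to 0.0339. Between the classes TGFBR2 differed by -0.49 (SE 0.55, adjusted p = 0.633 in limma), and by 0.12 without SU-DHL6. The order of the line means was SU-DHL6, L363, SU-DHL4, LP1, Namalwa and U266, and below L363 each pair of neighbours differed by less than 0.22, the gap between the SU-DHL6 duplicates. The second TGFBR2 probe set (207334_s_at) read 5.31 to 6.02, its line means spanned 0.09, and both ends were SU-DHL6 duplicates, so it did not show the SU-DHL6 level. Both SU-DHL4 arrays, U266 and LP1 had the same value there, 5.62118.

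BMPR2, the type II receptor for BMPs, read 5.57 in L363, 5.57 in U266 and 6.18 in LP1 at its leading probe set (210214_s_at). The B-cell arrays read 5.80 and 5.57 in Namalwa, 5.53 and 5.42 in SU-DHL6, and 5.46 and 5.24 in SU-DHL4. LP1 was the highest array, and the other PCM lines fell among the B-cell arrays. L363, U266 and Namalwa array 2 had the same value, 5.56805. The class difference was 0.27 (95% interval -0.23 to 0.77, adjusted p = 0.481 in limma), and it was 0.16 at the other probe set (209920_at). At 209920_at SU-DHL6 read 0.48 above SU-DHL4, with an adjusted p of 0.0612 in limma.

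SMAD1, a BMP-responsive SMAD, had the widest range of the 9 genes, and it followed no class. Its leading probe set (210993_s_at) read 9.75 and 10.27 in Namalwa, against 6.06 and 6.37 in SU-DHL6 and 5.66 and 5.51 in SU-DHL4. Both Namalwa arrays stood more than 3 log2 units above all 4 SU-DHL arrays. Namalwa exceeded the mean of the SU-DHL lines by 4.11, or 17.3-fold, with 3.79 over SU-DHL6 and 4.43 over SU-DHL4. Counting SMAD1 itself, 5 of the 22215 probe sets had a difference that high in this contrast. The gene was chosen with these levels in view, so this rank is a description and not a result. Because Namalwa was hybridised for an earlier publication and the SU-DHL lines for this study, the line and the data set cannot be told apart in this contrast.

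The PCM lines were also spread out: the same probe set read 5.74 in L363, 7.22 in U266 and 9.49 in LP1. LP1 was near Namalwa, L363 near the SU-DHL lines, and U266 between. LP1 exceeded the mean of L363 and U266 by 3.0, a difference reached by 50 probe sets. U266 exceeded L363 by 1.48, a size of difference that 88 probe sets reached between these otherwise close arrays. With 1 array for each PCM line, these differences have no replicate check. PCM lines averaged 7.48 ± 1.88 and B-cell lines 7.27 ± 2.39 (SD, n = 3 each), a difference of 0.21 (SE 1.48, adjusted p = 0.950 in limma) whose sign changed when SU-DHL4, SU-DHL6 or LP1 was left out (-0.79 to 1.58 over the 6 lines left out). The range of 4.43 over the line means, from SU-DHL4 to Namalwa, was reached by 0.729% of all probe sets. That range is the Namalwa contrast with SU-DHL4 again, so its rank is likewise a description. SU-DHL6 and SU-DHL4 differed by 0.63 (SE 0.20), which did not pass (adjusted p = 0.135 in limma).

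The second SMAD1 probe set (208015_at) showed the Namalwa level in a smaller form. It read 5.28 and 5.22 in Namalwa, 4.55 and 4.66 in SU-DHL6, and 4.58 and 4.61 in SU-DHL4. Namalwa was again above all SU-DHL arrays, and exceeded the mean of the SU-DHL lines by 0.66. The PCM lines read 4.77 in L363, 4.76 in U266 and 4.91 in LP1, so LP1 stood only 0.14 above the mean of L363 and U266 here. The probe sets thus share the highest line but differ widely in the size of the difference.

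**Figure D3:**
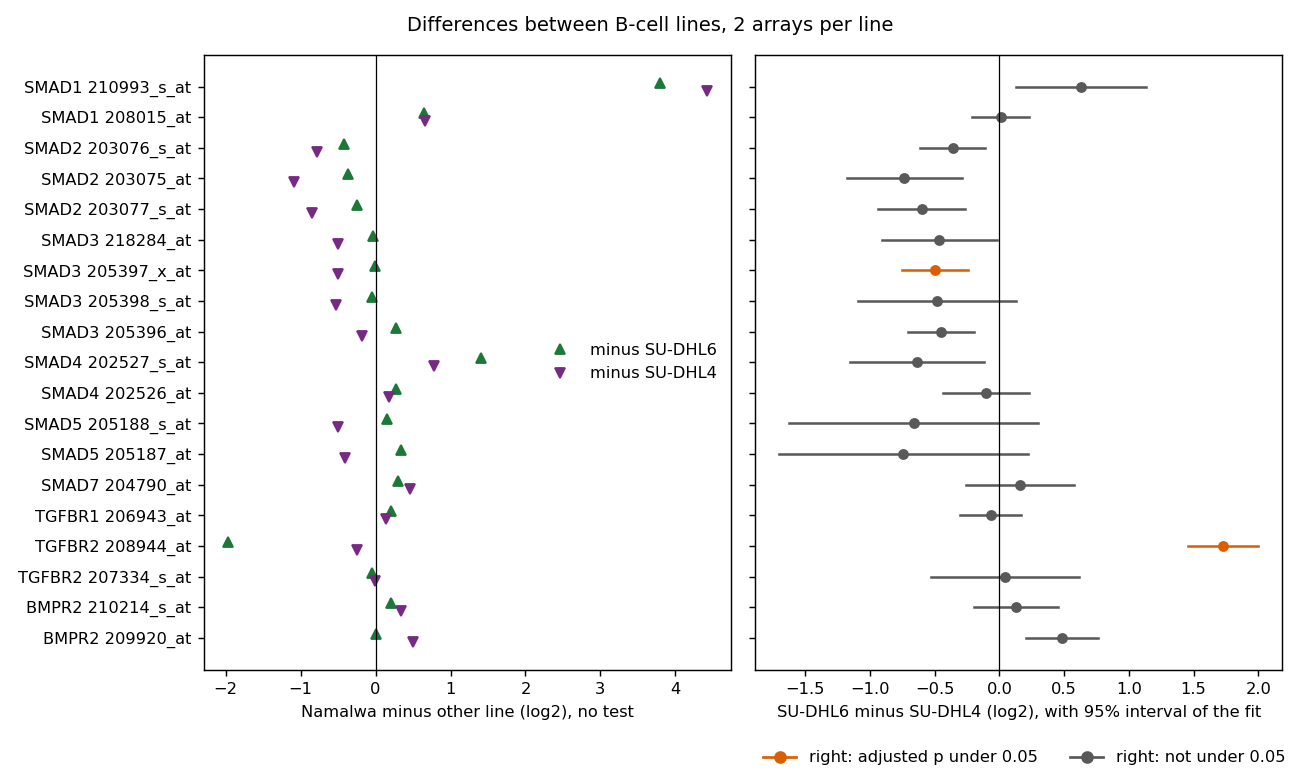
Differences among the B-cell lines in log2 units for the 19 probe sets. Left, Namalwa minus SU-DHL6 (triangles up) and minus SU-DHL4 (triangles down), with no test; right, SU-DHL6 minus SU-DHL4 with the 95% interval of the limma fit, in orange where the adjusted p was under 0.05. The leading SMAD1 probe set lies at 3.79 and 4.43 on the left, and TGFBR2 at 1.73 and SMAD3 at -0.50 are the coloured points on the right.

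In the whole set of 19, 3 probe sets differed by at least 2-fold between Namalwa and the mean of the SU-DHL lines, where 3.47% of all probe sets did. They belonged to SMAD1 and SMAD4, which were higher in Namalwa, and to TGFBR2, which was lower in Namalwa with a difference of -1.11. SMAD1 was in the set with this contrast in view, so the count is a description and not a result about the set. For TGFBR2 the difference was -1.97 against SU-DHL6 and -0.24 against SU-DHL4.

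The genes whose line levels were most like those of SMAD1, by the root mean square distance between centred levels of the 6 lines, were HDGFL3 at 0.71 log2 units, WSB2 at 0.78, APP at 0.82, NMI at 0.84 and TNFRSF21 at 0.86. HDGFL3 read 7.31 and 6.58 in Namalwa and 7.38 in LP1, against 4.15 to 4.60 in the other arrays. These distances are several times those found for SMAD7, which had the second widest range: BLVRA at 0.17, SCARB2 at 0.17, ZMYND11 at 0.18, ITM2A at 0.19 and PARD3 at 0.20. BLVRA read 8.68 in L363, 8.97 in U266 and 9.40 in LP1, against 6.77 to 7.06 in the B-cell arrays.

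SMAD5, the other BMP-responsive SMAD measured, was the only other gene whose leading probe set (205188_s_at) separated the classes. It read 6.71 in L363, 6.81 in U266 and 6.91 in LP1, against 7.48 and 6.80 in Namalwa, 7.03 and 6.94 in SU-DHL6, and 7.11 and 8.17 in SU-DHL4. The PCM lines lay below all 3 B-cell line means, but a Namalwa array fell among them. The difference was -0.44 (SE 0.19, adjusted p = 0.265 in limma). The SU-DHL4 duplicates were 1.06 apart here and 1.02 apart at the second probe set (205187_at), where the class difference was -0.47 and the lines overlapped.

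SMAD2, a TGF-beta-responsive SMAD, read lower in PCM lines at all 3 of its probe sets without passing the test. The leading one (203076_s_at) read 8.54 in L363, 9.08 in U266 and 9.2 in LP1. It read 9.12 and 9.18 in Namalwa, 9.63 and 9.52 in SU-DHL6, and 9.85 and 10.02 in SU-DHL4. LP1 lay just above the Namalwa arrays, so the classes overlapped, and SU-DHL4 was the highest line. The differences were -0.61 (SE 0.26) here, -1.04 (SE 0.40) at 203075_at and -0.79 (SE 0.34) at 203077_s_at, with adjusted p-values in limma of 0.274, 0.239 and 0.275. SU-DHL6 was below SU-DHL4 with differences of -0.36, -0.73 and -0.60 at the same probe sets. Both SU-DHL6 arrays lay under both SU-DHL4 arrays at each, where the arrays of these lines did not overlap, in either direction, at 49.9% of all probe sets. None passed the test, with limma adjusted p-values of 0.0960, 0.0698 and 0.0551. The probe sets of a gene share its RNA and are not separate evidence.

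SMAD3, the second TGF-beta-responsive SMAD, had the same extreme lines at 4 probe sets: LP1 had the highest line mean and U266 the lowest at each, although at 205396_at SU-DHL6 and U266 both had 7.10. The leading one (218284_at) read 7.68 in L363, 7.20 in U266 and 8.96 in LP1. It read 8.23 and 8.11 in Namalwa, 7.97 and 8.44 in SU-DHL6, and 8.56 and 8.78 in SU-DHL4. LP1 was above every B-cell array and the other PCM lines were below them all, so the class means differed by only -0.40 (SE 0.47, adjusted p = 0.651 in limma). LP1 exceeded the mean of L363 and U266 by 1.52 at this probe set, by 1.02 at 205397_x_at, by 1.72 at 205398_s_at and by 0.80 at 205396_at. At least 2-fold differences of LP1 in either direction were found at 5.59% of all probe sets.

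SU-DHL6 was lower than SU-DHL4 at all 4 SMAD3 probe sets, with differences of -0.50 to -0.45, and the arrays of the lines did not overlap at any. The adjusted p in limma was 0.202 at the leading 218284_at, 0.327 at 205398_s_at and 0.0580 at 205396_at, none of which passed. Only 205397_x_at passed the test. It read 7.44 and 7.47 in SU-DHL6, against 7.91 and 8.0 in SU-DHL4. SMAD3 at that probe set fell by 0.50 in SU-DHL6 (SE 0.10, adjusted p = 0.0433 in limma), and the adjusted p was between 0.0419 and 0.226 under the 12 alternatives, of which 4 kept the call. Together with TGFBR2 this made 2 of 19 probe sets called, where 8.52% of all probe sets were called in this comparison, a share near that background. The median over the 19 was -0.36, against 0.05 over all probe sets. The arrays of the lines failed to overlap at 13 of the 19, with SU-DHL6 below at 10, where 49.9% of all probe sets did not overlap. Probe sets of a gene are not separate, and the 4 of SMAD3 and the 3 of SMAD2 were among those 10. At the leading probe sets SU-DHL6 minus SU-DHL4 was 0.63 for SMAD1, -0.36 for SMAD2, -0.46 for SMAD3, -0.64 for SMAD4 and -0.66 for SMAD5. It was 0.16 for SMAD7, -0.07 for TGFBR1, 1.73 for TGFBR2 and 0.13 for BMPR2. The median and the counts are thus descriptions of probe sets and not of genes.

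SMAD4, the partner shared by both branches, had a range of 3.02 at its leading probe set (202527_s_at), reached by 2.55% of all probe sets. It read 5.97 in L363, 7.11 in U266 and 8.0 in LP1, against 8.97 and 9.0 in Namalwa, 7.87 and 7.27 in SU-DHL6, and 8.10 and 8.32 in SU-DHL4. Namalwa was highest and L363 lowest, while LP1 fell among the SU-DHL arrays. The class difference was -1.23 (SE 0.60, adjusted p = 0.323 in limma). Namalwa exceeded the SU-DHL lines by 1.09, LP1 exceeded the mean of the other PCM lines by 1.46, and U266 exceeded L363 by 1.15. Differences of at least 2-fold between U266 and L363 were found at 1.24% of all probe sets. The second SMAD4 probe set (202526_at) read 4.05 to 4.57 and showed a class difference of -0.14, so the wide range was seen at the leading probe set alone. At the leading probe sets of the SMADs, LP1 exceeded the mean of L363 and U266 by 0.16 for SMAD5 and 0.39 for SMAD2 up to 3.0 for SMAD1. For TGFBR2 LP1 read lower than L363. How often LP1 read above both lines over all probe sets was not counted. With 1 array for each PCM line, these differences are a description and not a trait of the SMADs.

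The other genes of the pathway were taken from lists by role, with 79 of 84 genes measured, and read at their leading probe sets. Between the classes limma called none higher and 1 lower, where 1.35% of leading probe sets over all genes were called higher and 1.95% lower, 3.30% in all. At an unadjusted p under 0.05 it was 17 of 79, where 21.6% of leading probe sets reached that level, a share near the background. Between SU-DHL6 and SU-DHL4, 2 were called higher and 6 lower, where 4.66% were called higher and 4.95% lower, 9.61% in all. At an unadjusted p under 0.05 it was 18 of 79, where 24.9% of leading probe sets were. The medians over the 79 genes were 0.04 between the classes and 0.06 between the SU-DHL lines, against 0.05 and 0.07 over all genes.

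Of 12 ligands none was called by limma in either comparison, with 3 between the classes and 2 between the SU-DHL lines at an unadjusted p under 0.05 (21.6% and 24.9% of all genes). BMP6, a BMP ligand, read 9.65 in L363, 9.09 in U266 and 7.77 in LP1, against 6.42 to 6.92 in the B-cell arrays. It lay above every B-cell array in each PCM line, with a difference of 2.05 (SE 0.48) that did not pass (adjusted p = 0.0999 in limma). BMP7, another BMP ligand, ran the other way, with 7.05 in L363, 7.26 in U266 and 6.60 in LP1. It read 10.57 and 10.17 in Namalwa, 9.11 and 10.06 in SU-DHL6, and 7.83 and 8.43 in SU-DHL4. All PCM lines were below all B-cell arrays, with a mean difference of -2.39 (SE 0.58, adjusted p = 0.105 in limma). For both ligands the share to set beside this is 28.2% of all probe sets, at which the line means of the classes did not overlap. TGFB1, the main TGF-beta ligand of lymphoid cells, had line means up to 0.91 apart and a class difference of -0.36.

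Of 10 other receptors and coreceptors none was called by limma, with 1 between the classes and none between the SU-DHL lines at an unadjusted p under 0.05 (21.6% and 24.9% of all genes). BAMBI, a decoy receptor that lacks the kinase, read 7.90 in LP1, against 6.0 in L363, 5.81 in U266 and 5.55 to 5.88 in the B-cell arrays. LP1 thus stood alone. The activin receptor ACVR2A and the coreceptor TGFBR3 had higher means in all PCM lines than in all B-cell lines, with class differences of 0.33 and 0.34 that did not pass. Line means of the classes did not overlap, in either direction, at 28.2% of all probe sets. The inhibitory SMAD6 and the BMP-responsive SMAD9, the remaining SMADs, had ranges of 0.43 and 0.03.

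Among 11 extracellular regulators 2 had an unadjusted p under 0.05 between the classes and 3 between the SU-DHL lines (21.6% and 24.9% of all genes). LTBP3, a latent TGF-beta binding protein, was called higher in SU-DHL6 than in SU-DHL4 (4.66% of all genes), by 0.78 (SE 0.13, adjusted p = 0.0230 in limma). Its relative LTBP1 read 7.81 in L363, 7.50 in U266 and 7.88 in LP1. The B-cell arrays read 8.61 and 8.55 in Namalwa, 10.05 and 10.24 in SU-DHL6, and 9.14 and 9.61 in SU-DHL4. The PCM lines were below all B-cell arrays, with a difference of -1.64 (SE 0.40) that did not pass (adjusted p = 0.106 in limma). Classes whose line means did not overlap were found at 28.2% of all probe sets. LRRC32, which anchors latent TGF-beta at the cell surface, differed by -0.20 between the classes, and its SU-DHL6 duplicates read 7.76 and 8.81.

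Of 19 intracellular regulators none was called by limma between the classes, where 5 had an unadjusted p under 0.05 (21.6% of all genes). In SU-DHL6 3 were called lower (4.95% of all genes). Between the SU-DHL lines 4 had an unadjusted p under 0.05 (24.9% of all genes). NEDD4L, a ubiquitin ligase that targets activated SMADs, read 7.03 and 7.50 in SU-DHL6, against 8.80 and 9.02 in SU-DHL4. It fell by 1.64 (SE 0.18, adjusted p = 0.00665 in limma). STRAP, which recruits SMAD7 to the receptor, fell by 0.68, and FKBP1A, which binds the type I receptor, fell by 0.64, with adjusted p-values in limma of 0.0200 and 0.0404. The widest ranges were those of NEDD4L, TGIF1 and TOB1. TGIF1, a nuclear corepressor of SMADs, read 6.71 in LP1 and 5.48 and 5.58 in Namalwa, against 4.37 to 4.63 in the other arrays. It was thus high in the same lines as SMAD1. TOB1, an antiproliferative protein that binds SMADs, spanned 1.36, and its SU-DHL4 duplicates read 8.70 and 7.73.

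Of 12 partners 3 had an unadjusted p under 0.05 between the classes and 2 between the SU-DHL lines (21.6% and 24.9% of all genes). MAP3K7, the TAK1 kinase of the SMAD-independent arm, was the gene called lower in PCM lines (1.95% of all genes). It read 7.52 in L363, 7.81 in U266 and 7.61 in LP1 at its leading probe set (211536_x_at), against 8.02 to 8.76 in the B-cell arrays. It fell by 0.76 (SE 0.13, adjusted p = 0.0493 in limma), with no overlap between the classes, where the line means of 28.2% of all probe sets had none. Its other probe sets gave -0.78, -1.66 and -1.09, also without overlap of the line means, and the -1.66 of 206854_s_at passed as well. At the leading probe set the call was kept in 4 of 17 alternatives, and in none of those that left out a line (adjusted p 0.0574 to 0.160 in limma) or that averaged L363 and U266 (0.105). ZEB1, a repressor that works with SMADs, was called lower in SU-DHL6 (4.95% of all genes), with a difference of -0.78 (SE 0.09, adjusted p = 0.00953 in limma). The coactivator CREBBP read lowest in L363, at 6.09, and ZEB2 highest in Namalwa, at 5.62 and 4.85, and neither was called.

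Of 17 target genes none was called by limma between the classes, where 4 had an unadjusted p under 0.05 (21.6% of all genes). In SU-DHL6 1 was called higher and 2 lower (4.66% and 4.95% of all genes). Between the SU-DHL lines 7 had an unadjusted p under 0.05 (24.9% of all genes). KLF10, an early TGF-beta response gene, read 9.02 and 9.53 in SU-DHL6, against 7.16 and 7.26 in SU-DHL4. KLF10 and TGFBR2 were thus both higher in SU-DHL6; for KLF10 the difference was 2.06 (SE 0.18, adjusted p = 0.00396 in limma). TSC22D1, also known as a TGF-beta response gene, fell by 1.95 in SU-DHL6 (SE 0.29, adjusted p = 0.0173 in limma). JUNB, a subunit of the AP-1 factor, fell by 1.58 (SE 0.24, adjusted p = 0.0187 in limma). Targets therefore moved in both directions between these lines. All 8 pathway genes called between the SU-DHL lines lost the call in at least 1 of the 4 fits that left out an array: NEDD4L, KLF10, ZEB1, JUNB and TSC22D1 without either SU-DHL4 array, LTBP3 without SU-DHL4 array 2 or SU-DHL6 array 2, STRAP without either SU-DHL4 array or SU-DHL6 array 2, and FKBP1A without any of them.

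The ID genes encode inhibitors of helix-loop-helix factors and are textbook targets of BMP-activated SMAD1 and SMAD5. ID3 read 11.48 and 11.63 in Namalwa, against 9.13 and 9.47 in SU-DHL6 and 9.63 and 9.47 in SU-DHL4. In the PCM lines it read 9.40 in L363, 7.37 in U266 and 6.75 in LP1. Namalwa was highest for ID3 as for SMAD1, but LP1, which ranked next to Namalwa for SMAD1, was lowest for ID3. The class difference of ID3 was -2.30 (SE 0.90, adjusted p = 0.244 in limma), and its range of 4.81 was the widest of the listed targets. ID2 read 8.24 in L363, 9.91 in U266 and 9.77 in LP1, against 6.24 to 7.94 in the B-cell arrays, a difference of 2.23 (SE 0.50) that did not pass (adjusted p = 0.0911 in limma). ID1, singled out after its values were seen, read 7.53 in LP1, against 5.38 in L363, 5.57 in U266 and 5.35 to 6.18 in the B-cell arrays.

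**Figure D4:**
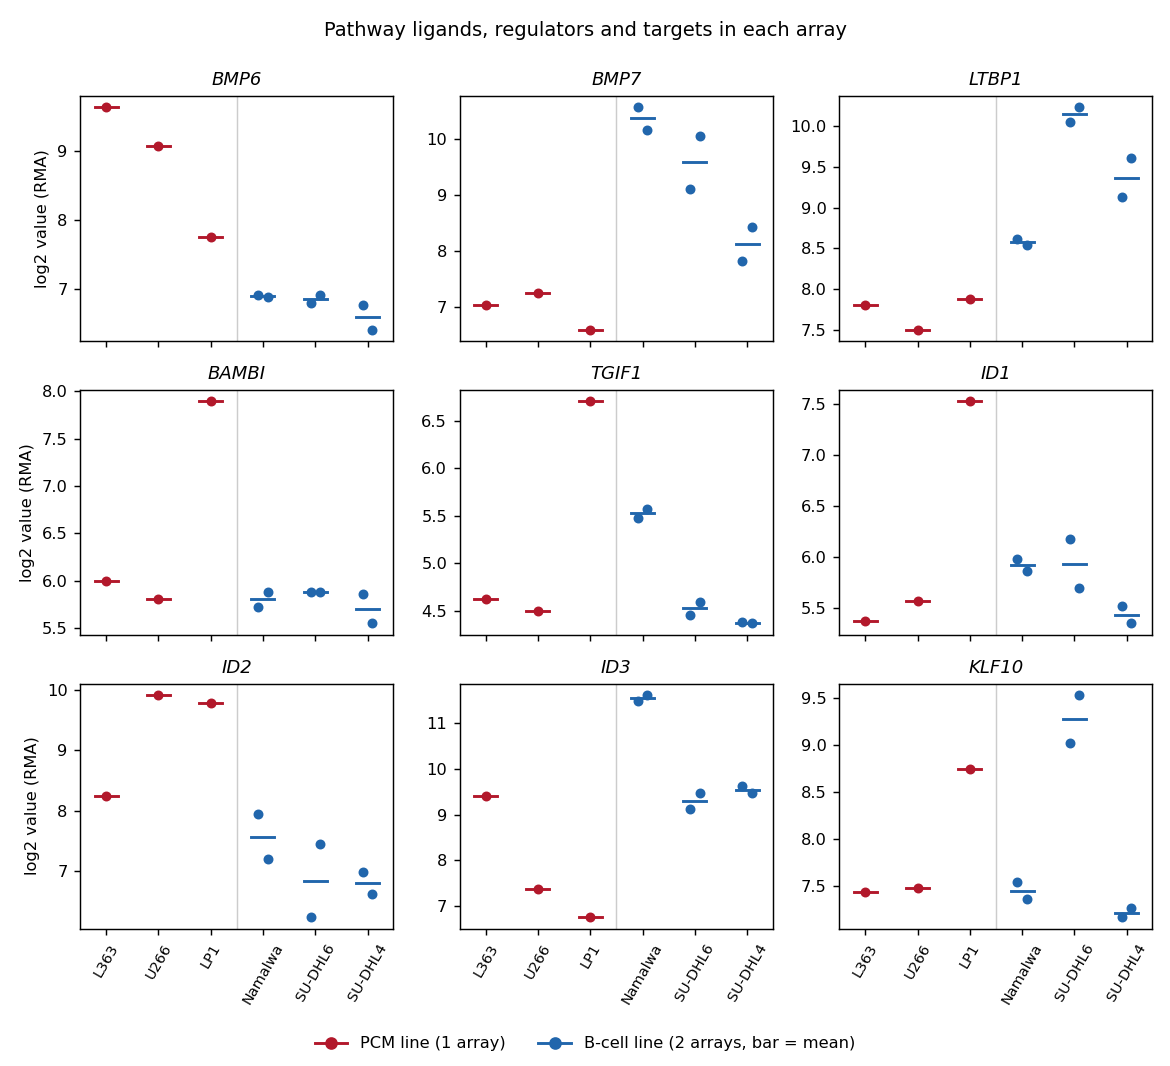
RMA log2 level of the leading probe set of 9 other pathway genes, with 1 point per array and a bar at the line mean, PCM lines in red on the left and B-cell lines in blue on the right. BMP6 and ID2 lie above and BMP7 and LTBP1 below all B-cell arrays in every PCM line without passing the test, BAMBI, TGIF1 and ID1 are highest in LP1, ID3 is highest in Namalwa, and KLF10 is highest in SU-DHL6. Line means of the classes did not overlap at 28.2% of all probe sets.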

How the data were processed

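The authors deposited log2 values of 22283 probe sets on 9 HG-U133A arrays, normalised with RMA per the submitters' processing notes; its version is not given in the sources used here. The authors also deposited a table of log2 differences and p-values. Its p-values equalled those of limma with all 9 arrays as replicates, and its differences are B-cell minus PCM means, so their sign was turned before it served as an alternative. After 68 control probe sets were left out, 22215 were tested. Gene symbols came from GEO's platform annotation: 19065 probe sets had 1 symbol, 1043 had several and 2107 had none, and only those with 1 were named.

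Duplicate arrays were averaged, and limma 3.58.1 in R 4.3.3 (lmFit, eBayes, two-sided) compared 3 PCM lines with 3 B-cell lines (4 residual degrees of freedom) and, on the 6 B-cell arrays, SU-DHL6 with SU-DHL4 (3 residual degrees of freedom). P-values were adjusted by Benjamini-Hochberg over all 22215 probe sets and called under 0.05. Array medians lay between 6.95 and 7.04, and the number of arrays limits the precision. Nothing says that the duplicates came from separate cultures.

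The genes, the pathway lists and the tests were chosen with earlier results of these data known. Every probe set of the SMADs and receptors was named. From each list, genes called in a comparison (at most the 4 with the smallest p) and the 3 with the widest range over the lines were eligible. Likeness of pattern was the root mean square distance of centred line means, with the 5 nearest genes named. Upstream sequences came from RefSeq (GRCh38.p14). The alternatives averaged, split, rescaled or filtered the arrays, changed the moderation or threshold, or left out a line or array.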

Additional observations from a re-analysis of the deposited data

How the results depend on the processing

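Over the 19 probe sets, 299 of 324 values recomputed between the classes kept their direction and side of the threshold, 7 lost the call (all SMAD7) and 18 changed sign. Between SU-DHL6 and SU-DHL4, 198 of 219 were kept, 8 lost the call (all SMAD3), 7 gained it and 6 changed sign. The count of called probe sets between the classes was 1, but 0 with L363 and U266 averaged or at an adjusted p under 0.01, and 0 to 1 when a line was left out. Over all probe sets 619 were called, and 75 to 2189 under the alternatives. Between the SU-DHL lines the count was 2, but 1 with the 4 SU-DHL arrays alone or at an adjusted p under 0.01, and 1 to 3 when an array was left out; over all probe sets it was 1892, and 319 to 2545 under the alternatives.

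With the replicate number as a block, the SU-DHL count was 1, TGFBR2, with 1359 calls over all probe sets, and the SMAD1 difference of Namalwa stayed at 4.11. The numbers did not pair the samples in a common way. Deviations of same-numbered arrays correlated at -0.44 for Namalwa and SU-DHL4, -0.15 for Namalwa and SU-DHL6 and 0.20 for SU-DHL4 and SU-DHL6. The -0.44 is a deviation shared with the numbers crossed, which a block by number does not take up. Its cause was not tested. The SMAD1 difference was 3.85 to 4.37 when an array was left out, 4.43 against SU-DHL4 alone, 3.79 against SU-DHL6 alone and 0.66 at the other probe set.

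Signs changed where differences were small or 1 line decided them. When each line was left out, the class differences ran from -0.79 to 1.58 for SMAD1 (210993_s_at), -0.12 to 0.215 for SMAD1 (208015_at), -0.45 to 0.17 for SMAD3 (205397_x_at), -0.22 to 0.19 for SMAD3 (205396_at), -0.86 to 0.12 for TGFBR2 (208944_at) and -0.00556 to 0.24 for BMPR2 (209920_at). SMAD1 (208015_at) was also 0.00963 with array 1 of each B-cell line alone, 0.0203 with L363 and U266 averaged and 0.0904 after centring on the 75th percentile. SMAD3 (205397_x_at) was 0.0578 with L363 and U266 averaged, and TGFBR2 (207334_s_at) 0.110 with array 2 alone and 0.0674 after that centring. Between SU-DHL6 and SU-DHL4, the ranges over arrays left out were -0.0440 to 0.0668 for SMAD1 (208015_at), -0.0812 to 0.40 for SMAD7 and -0.32 to 0.40 for TGFBR2 (207334_s_at). A second quantile normalisation gave -0.0368 for SMAD1 (208015_at) and -0.0153 for TGFBR2 (207334_s_at). The cause was not tested.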

Other observations

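CDKN1A, a cell cycle inhibitor among the listed targets and chosen after its values were seen, read 8.82 and 12.11 in the SU-DHL6 duplicates, against 8.05 and 7.88 in SU-DHL4. It read 9.68 and 9.60 in Namalwa, and 8.08 in L363, 8.44 in U266 and 7.98 in LP1. The difference of 2.50 between SU-DHL6 and SU-DHL4 did not pass (adjusted p = 0.213 in limma). The SU-DHL6 duplicates differed by over 2-fold at 423 of all probe sets, against 73 between the Namalwa and 67 between the SU-DHL4 duplicates, and L363 and U266 differed so at 275.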
